A study of Mus musculus with 2 samples.

Results

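The genes described here are 31 members of the machinery that folds proteins in the endoplasmic reticulum (ER) and of the unfolded protein response that adjusts it, out of 23571 genes counted. They were taken by gene symbol: 15 ER chaperones and folding enzymes, 5 genes of ER-associated degradation and translocation, 5 sensors and regulators of the response, and 6 targets of the transcription factor ATF4. The most read RefSeq transcript stood for each gene, and all 31 were found and passed the minimum of 50 reads in the 2 libraries together. RNA was sequenced from mTEChi, the medullary thymic epithelial cells with high MHC class II that present antigens of peripheral tissues to developing T cells. Both libraries came from 1 lentigenic B6 mouse, which carried shRNAs against Clp1 and the ZsGreen reporter (read as GFP) behind the doxycycline-inducible promoter TRE3G, and the transactivator TetOn3G behind the EF1 promoter. The mouse ate doxycycline food at 2 g/kg for 2 weeks from 3 weeks of age. The Clp1 KD library was made from its GFP+ mTEChi, which expressed the shRNAs, and the Ctr library from the GFP- mTEChi of the same thymus, so that the Ctr cells came from the same lentigenic animal and had also been exposed to doxycycline.

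Secretory and membrane proteins fold in the ER with the help of Hsp70 and Hsp90 chaperones, lectin chaperones and disulfide isomerases, and misfolded ones are returned to the cytosol for degradation. When unfolded proteins accumulate, the membrane proteins ATF6, IRE1 and PERK start 3 branches of the response: cleaved ATF6 and the spliced form of XBP1 act mainly on chaperone and degradation genes, whereas PERK phosphorylates eIF2alpha, which favours translation of ATF4 and with it transcription of genes of amino acid supply and of the stress factor CHOP. The chaperones were therefore set against the ATF4 targets.

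With 1 library per group no difference below has a replicate check and no p-value was computed. Reads were scaled by size factors of 1.14 for Clp1 KD and 0.877 for Ctr, from totals of 37524730 and 28464803 reads over transcripts in Clp1 KD and Ctr. Each log2 ratio is Clp1 KD over Ctr with a 95% Clopper-Pearson interval, which takes in the counting error of reads alone. Several PCR copies of 1 molecule may have been counted, so the interval may be narrower than the error over molecules. A gene was called higher or lower at a ratio of at least 2 in either direction with an interval that left out 0. Of the 16831 genes tested, 19.1% were called higher and 18.6% lower, which is the share beside which each count below is to be read. Clp1, the targeted gene, had 712 scaled reads in Clp1 KD cells, 39.7% of the 1793 in Ctr cells. Of 18 markers of thymic epithelium 5 were called higher and none lower, and all 18 had reads in both libraries (median log2 ratio 0.40; Cd74, H2-Ab1 and H2-Aa had the most reads). Markers of endothelium (11 of 11 called lower, median -3.95), red cells (5 of 5, -4.97), thymocytes (13 of 17, -1.73), neutrophils (7 of 9, -2.36), B cells (4 of 7, -1.88), fibroblasts and mural cells (7 of 12, -1.39) and cortical epithelium (6 of 10, -1.40) were lower in Clp1 KD, as were 9 of 15 of dendritic cells and macrophages (2 higher, -1.30). In bulk RNA, fewer cells of a type and less RNA per cell cannot be told apart.

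Several ER chaperones were more abundant in Clp1 KD mTEChi, and the ATF4 targets were divided. Of the 15 chaperones and folding enzymes, 5 were called higher (Hsp90b1, Hspa5, Pdia3, Canx and Pdia4), none was called lower, and 14 had a log2 ratio above 0, with a median of 0.59. Of the 6 ATF4 targets none was called higher and 3 were called lower (Asns, Chac1 and Trib3), with a median of -0.41 and 3 values on either side of 0. The medians differed by 1.01 on the log2 scale. The contrast depended on the processing. With the trend over GC content subtracted, as described further on, the ATF4 target median was 0.06, the difference of the medians was 0.64, and of the 3 ATF4 targets called lower Asns alone kept its call, while Ddit3 was called higher. With every transcript of a gene entered separately the ATF4 target median was 0.24 and the difference 0.50. Atf5 was the only ATF4 target entered more than once (0.24 and 0.34), and no target lay between Trib3 (-1.07) and Atf5, so this gene alone moved the median. In that setting 11 of 40 transcripts of members were called higher and 5 lower, against 19.2% and 18.3% of 22758 transcripts. The added higher calls were further transcripts of Canx, Hspa5 and Sel1l. Scaling the libraries on thymic epithelium markers was an alternative added after seeing the data. The chaperone median was then 0.19, the ATF4 target median -0.81, and Pdia4 was not called. A change of scaling moves both medians alike, so it bears on their position against 0 and not on the contrast. Among all 31 members 7 were called higher and 5 lower, against 19.1% called higher and 18.6% called lower of the 16831 genes tested, whose median was 0.00 and whose quartiles were -0.70 and 0.71. Because shallow genes cross the threshold more easily, the deeply counted ones were also read on their own. Of the 27 members with 1000 reads or more in all, 7 were called higher and 2 lower, against 11.3% higher and 9.67% lower of the 8586 genes at that depth. At a 1.5-fold threshold 12 of the 31 members were called higher and 5 lower, against 28.3% and 28% of the tested genes.

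**Figure D1:**
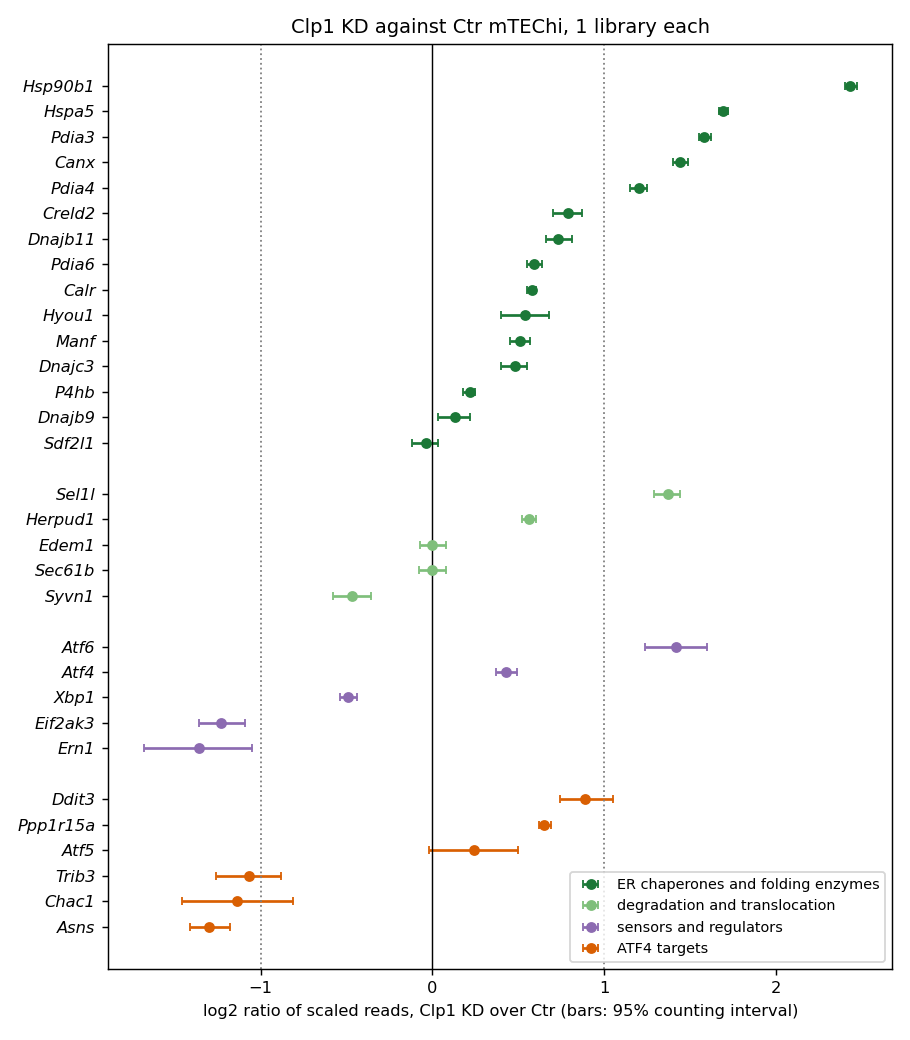
Log2 ratio of scaled reads, Clp1 KD over Ctr, of each of the 31 members (x axis), by group and in falling order; points are single-library ratios, bars 95% counting intervals and dotted lines the 2-fold threshold. The chaperones run between -0.04 and 2.43 with 14 of 15 above 0, and the ATF4 targets fall into 3 above and 3 below 0.

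Promoters of the members were searched for the binding sequences by which these branches are known, and examples are shown to give the letters of the elements. The groups were set by gene symbol, as known targets of these branches. The counts of elements are therefore not independent of the grouping, and their excess over all genes is a description only. The ER stress response element (ERSE, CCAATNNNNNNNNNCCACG) is bound by ATF6 with the CCAAT-binding factor NF-Y, ERSE-II (ATTGGNCCACG) is a shorter form, UPRE (TGACGTGG) is bound by XBP1 and ATF6, and the C/EBP-ATF response element (CARE, TGATGNAA) is bound by ATF4. Both strands were searched from 250 bases before to 50 bases after the transcription start in RefSeq promoters of the mouse build GRCm38.p6, in which 28 of the 31 members had an entry. ERSE was found in 8 of these 28, of which 7 are chaperones and 1 is Syvn1. Over all 32851 promoters, which belong to 27025 genes, it was found in 0.137% of genes. ERSE-II was found in Dnajb11 and Herpud1, and in 0.0444% of all genes with a promoter. CARE was found in Asns, Chac1, Trib3 and Herpud1, and in 4.51% of all genes with a promoter, and UPRE in none of the 28 and 0.714% of all. In all, 13 of the 28 had any of the motifs in this window. No site was found for Pdia3, Pdia4, Sel1l or Atf6, all called higher. A member without a promoter entry could not show one. The 3 ATF4 targets with a CARE were the 3 called lower, of which Trib3 and Chac1 lost their calls without the GC trend (-0.66 and -0.77). Herpud1, the other member with a CARE, had a log2 ratio of 0.56 and was not called. Whether the motif goes with direction was not tested. ERSE and ERSE-II share the letters CCACG, and the ERSE-II and CARE of Herpud1 did not overlap. A match is a description of the sequence and not a measurement of binding. Of 15 sites, 9 are printed, with the fixed letters of the motif in capitals; at Hsp90b1 there were 2 sites.
Hspa5, ERSE, chr2:34772020-34772048, plus strand: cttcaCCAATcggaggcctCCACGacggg
Hsp90b1, ERSE nearer the start, chr10:86705528-86705556, plus strand: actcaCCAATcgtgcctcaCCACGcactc
Hsp90b1, ERSE farther from the start, chr10:86705633-86705661, minus strand: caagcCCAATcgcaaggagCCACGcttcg
Canx, ERSE, chr11:50325795-50325823, minus strand: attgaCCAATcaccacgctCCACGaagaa
Calr, ERSE, chr8:84847070-84847098, plus strand: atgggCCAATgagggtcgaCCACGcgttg
Herpud1, ERSE-II, chr8:94386372-94386392, plus strand: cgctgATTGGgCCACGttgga
Asns, CARE, chr6:7693220-7693237, minus strand: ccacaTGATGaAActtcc
Chac1, CARE, chr2:119351044-119351061, minus strand: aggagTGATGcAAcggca
Trib3, CARE, chr2:152344034-152344051, plus strand: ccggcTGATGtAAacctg
The sites not printed were the ERSEs of Creld2, Dnajc3, Pdia6 and Syvn1, the ERSE-II of Dnajb11 and the CARE of Herpud1. Of the 7 chaperones with an ERSE, Hsp90b1 (log2 ratio 2.43), Hspa5 (1.69) and Canx (1.44) were called higher, and Creld2 (0.79), Pdia6 (0.59), Calr (0.58) and Dnajc3 (0.48) were not called.

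Among the Hsp70 and Hsp90 chaperones, the ATPases that bind unfolded stretches of client proteins, the largest increase was that of Hsp90b1. Hsp90b1 (mm9 chromosome 10, 86152954 to 86168254, minus strand) encodes Grp94, the Hsp90 of the ER lumen, and had 42598 scaled reads in Clp1 KD cells, against 7881 in Ctr cells. Its log2 ratio was 2.43 (2.40 to 2.47), a 5.41-fold difference, and 93% of the tested genes had a lower ratio. Hspa5 (mm9 chromosome 2, 34627490 to 34632051, plus strand) encodes BiP, the ER Hsp70, and had 70923 scaled reads in Clp1 KD cells, against 21943 in Ctr cells, a log2 ratio of 1.69 (1.67 to 1.72). Both genes were far above the Ctr level in the Clp1 KD library, and since Hsp90b1 rose more, the quotient of Hspa5 over Hsp90b1 in reads per kilobase was 1.76 in Clp1 KD and 2.94 in Ctr. Hyou1, a large Hsp70 relative that exchanges the nucleotide of BiP, had 1049 scaled reads in Clp1 KD and 723 in Ctr cells, and with a log2 ratio of 0.54 (0.40 to 0.68) it was not called.

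The co-chaperones of BiP varied less between the libraries than BiP itself. J-domain proteins stimulate the ATPase of BiP and choose its clients. The subgroup held the J-domain genes Dnajb11, Dnajc3 and Dnajb9 and, as a partner, Sdf2l1. None of these 4 genes was called. Dnajb11, which encodes ERdj3, had 3906 scaled reads in Clp1 KD and 2351 in Ctr cells, a log2 ratio of 0.73 (0.66 to 0.81). Dnajc3, which encodes p58IPK, had 3856 in Clp1 KD and 2773 in Ctr cells (0.48, 0.40 to 0.55). Dnajb9, which encodes ERdj4, had 2024 and 1856 scaled reads in Clp1 KD and Ctr cells (0.13, 0.03 to 0.22). Sdf2l1, a partner of ERdj3, was the only chaperone with a ratio below 0, with 2890 scaled reads in Clp1 KD and 2977 in Ctr cells and an interval (-0.12 to 0.03) that included 0. Hspa5 thus stood at 10.4 times the level of Sdf2l1 per kilobase in Clp1 KD cells and at 3.12 times in Ctr cells.

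The disulfide isomerases, which form and rearrange the disulfide bonds of secretory proteins, were divided. Pdia3 (mm9 chromosome 2, 121239511 to 121264423, plus strand) encodes ERp57, the isomerase that works on glycoproteins held by the lectin chaperones, and had 27640 scaled reads in Clp1 KD cells, against 9231 in Ctr cells, a log2 ratio of 1.58 (1.55 to 1.62). Pdia4 (mm9 chromosome 6, 47746141 to 47763511, minus strand), which encodes ERp72, had 10354 in Clp1 KD and 4505 in Ctr cells (1.20, 1.15 to 1.25). These 2 genes were called higher. P4hb, which encodes the founding isomerase PDI, had 13319 scaled reads in Clp1 KD and 11469 in Ctr cells, a log2 ratio of only 0.22 (0.18 to 0.25), and Pdia6 had 10819 and 7175 in Clp1 KD and Ctr cells (0.59, 0.55 to 0.64). In the level per kilobase Pdia3 stood above P4hb in Clp1 KD cells (10462 against 5248 scaled reads per kilobase), whereas in Ctr cells P4hb stood above Pdia3 (4519 against 3494).

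The 2 lectin chaperones, which retain glycoproteins until they are folded, also differed from each other. Canx (mm9 chromosome 11, 50107969 to 50139175, minus strand), the membrane-bound calnexin, had 15752 scaled reads in Clp1 KD cells, against 5792 in Ctr cells, and was called higher (1.44, 1.40 to 1.49). Calr, the soluble calreticulin, had 26993 in Clp1 KD and 18098 in Ctr cells and was not called (0.58, 0.55 to 0.60). Calr remained the more abundant of the pair per kilobase in both libraries, with Canx at 0.265 of its level in Clp1 KD and 0.145 in Ctr. Manf and Creld2, small ER proteins that are secreted under ER stress, had log2 ratios of 0.51 (0.45 to 0.57) and 0.79 (0.70 to 0.87) and were not called. Summed over the 15 chaperones, reads made up 1.0% of the Clp1 KD library and 0.427% of the Ctr library, counted over 1 transcript per gene, and the summed scaled reads were 2.35 times as high in Clp1 KD. The ATF4 targets were also higher by this measure, at 0.0937% in Clp1 KD and 0.0682% in Ctr and 1.38 times in scaled reads. Most of their reads were those of Ppp1r15a.

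**Figure D2:**
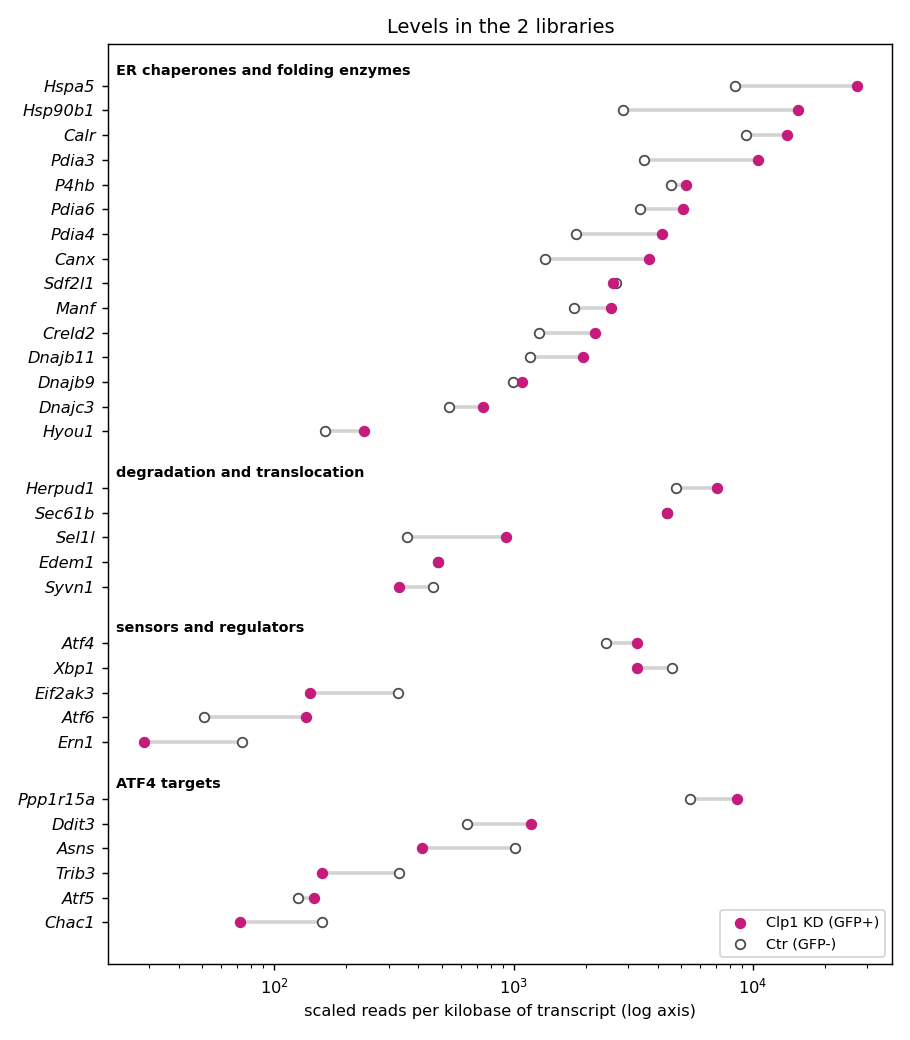
Scaled reads per kilobase of transcript (x axis, log scale) of the 31 members in the Clp1 KD library (filled) and the Ctr library (open), by group and in falling order of the Clp1 KD level. Hspa5 is the most abundant member in Clp1 KD (27111) and Ern1 the least (28.5); Asns, Trib3, Chac1, Eif2ak3 and Ern1 have their open point well to the right of the filled one.

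Levels per kilobase placed several chaperones among the most abundant transcripts of these cells. Among 16139 genes ranked by scaled reads per kilobase, Hspa5 was number 28 in Clp1 KD and 165 in Ctr, Hsp90b1 number 59 in Clp1 KD and 737 in Ctr, Calr number 68 in Clp1 KD and 138 in Ctr, and Pdia3 number 114 in Clp1 KD and 574 in Ctr. At the low end, Hyou1 had 237 scaled reads per kilobase in Clp1 KD and 163 in Ctr, and the sensors Atf6, Eif2ak3 and Ern1 had 136, 141 and 28.5 in Clp1 KD and 50.9, 329 and 73.1 in Ctr. The order of the chaperones at the top differed between the libraries. In Clp1 KD Hspa5 (27111 scaled reads per kilobase) was followed by Hsp90b1 (15440) and Calr (13893), whereas in Ctr Calr (9314) led Hspa5 (8388), and Hsp90b1 (2856) stood below P4hb, Pdia3 and Pdia6.

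The genes of degradation and translocation did not move together. Sel1l (mm9 chromosome 12, 93044483 to 93087597, minus strand), the adaptor of the ubiquitin ligase HRD1, had 5827 scaled reads in Clp1 KD cells, against 2261 in Ctr cells, and was the 1 of 5 called higher (1.37, 1.29 to 1.44). Syvn1, which encodes HRD1 itself, had 1156 in Clp1 KD and 1602 in Ctr cells and was not called (-0.47, -0.58 to -0.36), so that ligase and adaptor lay on opposite sides of 0. Herpud1, which encodes HERP, a membrane protein of the HRD1 complex, had 13195 in Clp1 KD and 8939 in Ctr cells (0.56, 0.52 to 0.60). Edem1, which directs misfolded glycoproteins to degradation, and Sec61b, a subunit of the translocon, were at nearly the same level in both libraries, with 2821 and 2819 scaled reads for Edem1 and 2418 and 2416 for Sec61b in Clp1 KD and Ctr cells. The group median was 0.00.

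Of the 3 sensors, 1 was called higher and 2 were called lower in Clp1 KD. Atf6 (mm9 chromosome 1, 172634588 to 172797902, minus strand) had 1016 scaled reads in Clp1 KD cells, against 380 in Ctr cells (1.42, 1.24 to 1.60). Ern1 (mm9 chromosome 11, 106255964 to 106349166, minus strand), which encodes IRE1, the kinase and nuclease that splices Xbp1 mRNA, had 113 in Clp1 KD and 291 in Ctr cells (-1.36, -1.68 to -1.05). Eif2ak3 (mm9 chromosome 6, 70794509 to 70855239, plus strand), which encodes the kinase PERK, had 633 in Clp1 KD and 1481 in Ctr cells (-1.23, -1.36 to -1.09). The quotient of Atf6 over Eif2ak3 per kilobase was 0.966 in Clp1 KD and 0.154 in Ctr. The factors downstream of IRE1 and PERK were not called: Xbp1 had 5869 scaled reads in Clp1 KD and 8249 in Ctr cells (-0.49, -0.54 to -0.44), and Atf4 had 5655 and 4194 in Clp1 KD and Ctr cells (0.43, 0.37 to 0.49). Counts per transcript do not separate the spliced from the unspliced form of Xbp1 mRNA, and neither the cleavage of ATF6 nor the translation of ATF4 shows in mRNA levels.

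The ratio of Atf6 was uneven along its transcript. The exons before the last had 291 raw reads in Clp1 KD and 160 in Ctr, a log2 ratio of 0.48 (0.20 to 0.77), whereas the upstream part of the last exon had 596 and 96 reads in Clp1 KD and Ctr (2.26, 1.94 to 2.58) and the distal 3'UTR 247 and 68 (1.48, 1.09 to 1.89). The 2-fold call of Atf6 thus rested on its last exon. Within Hsp90b1 every part was more than 2-fold higher in Clp1 KD, at 2.76 (2.36 to 3.19) in the 5'UTR, 2.45 (2.41 to 2.49) in the earlier exons and 2.26 (2.15 to 2.37) in the last exon. The same held for Hspa5, at 1.36 (1.23 to 1.49) in the 5'UTR, 1.75 (1.72 to 1.78) in the earlier exons, 1.64 (1.61 to 1.68) in the last exon before the distal part and 1.64 (1.53 to 1.75) in the distal 3'UTR. In both genes the counting intervals of some parts did not overlap, though PCR copies may make these intervals too narrow. Eif2ak3 stood at -1.21 in the earlier exons and in the last exon, and Asns at -1.20 and -1.55.

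The ATF4 targets were divided into 3 called lower and 3 with ratios above 0. Asns (mm9 chromosome 6, 7625169 to 7643254, minus strand), which encodes asparagine synthetase, had 796 scaled reads in Clp1 KD cells, against 1955 in Ctr cells (-1.30, -1.41 to -1.18). Chac1 (mm9 chromosome 2, 119176965 to 119180117, plus strand), whose product degrades glutathione, had 113 in Clp1 KD and 249 in Ctr cells (-1.14, -1.46 to -0.81). Trib3 (mm9 chromosome 2, 152163158 to 152169768, minus strand), a pseudokinase, had 324 in Clp1 KD and 678 in Ctr cells (-1.07, -1.26 to -0.88). These 3 were called lower. The other 3 were not called. Ddit3, which encodes CHOP, had 1024 scaled reads in Clp1 KD and 553 in Ctr cells (0.89, 0.74 to 1.05), close to the 2-fold threshold. Ppp1r15a, which encodes GADD34, the phosphatase subunit that reverses the phosphorylation of eIF2alpha, had 19968 in Clp1 KD and 12689 in Ctr cells (0.65, 0.62 to 0.69) and was by far the most abundant of the 6. Atf5, a transcription factor, had 268 in Clp1 KD and 227 in Ctr cells, with an interval that included 0 (0.24, -0.02 to 0.50). The quotient of Ddit3 over Asns in reads per kilobase was 2.85 in Clp1 KD and 0.626 in Ctr, so that CHOP mRNA was the more abundant of the 2 in Clp1 KD and the less abundant in Ctr.

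GC content and cell type markers moved with these values. Log2 ratios declined with the GC content of the transcript, with a median of 0.53 in the tenth of genes with the lowest and -0.50 in the tenth with the highest GC content, and the ATF4 targets were richer in GC (median 57.0%) than the chaperones (48.9%). Over the 31 members Spearman's rho of ratio and GC content was -0.45, and over 15515 genes -0.29, both as descriptions within the same 2 libraries. After subtraction of the running median over GC content, the chaperone median was 0.70 and the ATF4 target median turned from below to above 0, at 0.06. Asns kept its call at -1.39, Trib3 (-0.66) and Chac1 (-0.77) lost theirs, and Ddit3 (1.08) and Creld2 (1.07) passed the threshold. Members called higher were then 9 and members called lower 3, against 17.1% higher and 17.7% lower of the 15515 genes with a GC content. When the libraries were scaled on the thymic epithelium markers instead of on all genes, the ATF4 target median was -0.81, Pdia4 and Sel1l lost their calls, and 5 members were called higher and 5 lower, against 13.1% and 27.7% of the tested genes. The part that GC content and cell type markers have in these differences was not tested.

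**Figure D3:**
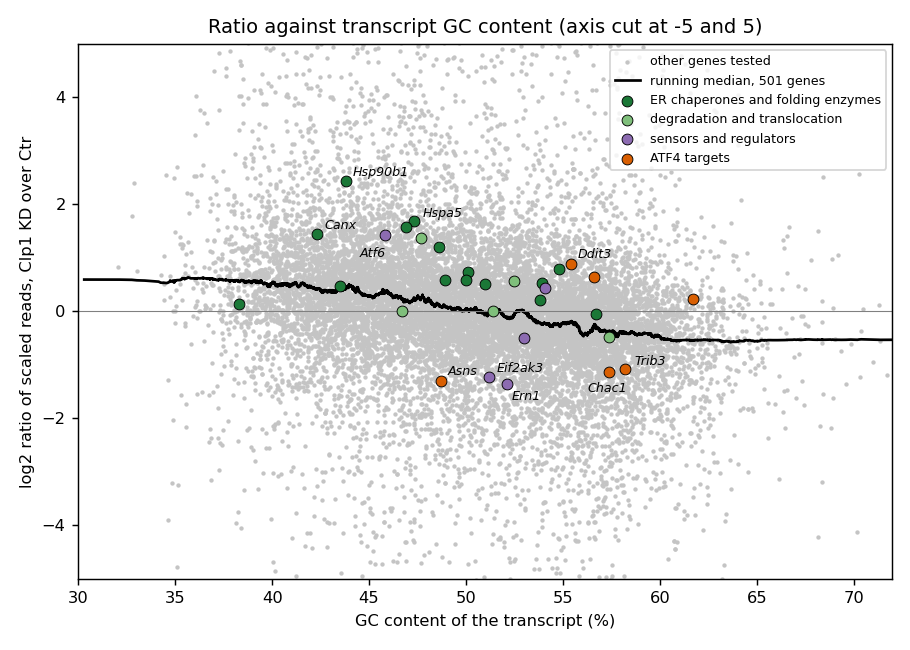
Log2 ratio of scaled reads, Clp1 KD over Ctr (y axis), against the GC content of the transcript in percent (x axis), for genes tested (grey) and the members (coloured by group), with the running median over GC content as a line. Hsp90b1, Hspa5, Canx and Atf6 lie above the line on its low-GC side, Asns, Ern1 and Eif2ak3 lie below it, and Trib3 and Chac1 lie below it where the line itself is below 0.

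Other genes of the same pathways gave the members a context. In the 4 ER lists that follow, 3.7% to 13% of genes were called higher and 0% to 13% lower. These shares lie below the 19.1% and 18.6% of all tested genes. Among genes with 1000 reads or more the shares were 11.3% higher and 9.67% lower, and the highest list share in each direction (13%) lay above these. Of 23 further ER folding factors tested, 2 were called higher and 3 lower (median 0.17). Ero1a, the oxidase that recharges disulfide isomerases, had 2544 reads in Clp1 KD and 751 in Ctr (1.38), Mesd, a chaperone of LDL receptor family proteins, stood at 1.11, and Fkbp14 (-3.52), Fkbp11 (-2.32) and Pdia5 (-1.48) were the 3 called lower. Of 31 translocon, signal peptidase and glycosylation genes 2 were called higher, both of the signal recognition particle (Srp72, 2.39, and Srp54a, 1.09), and none lower (median 0.22). Of 23 further degradation genes 3 were called higher and none lower (median 0.08): Derl3 (2.37, with 303 reads in Clp1 KD and 45 in Ctr), Edem3 (1.40) and Ubxn4 (1.04). Of 27 genes of ER to Golgi transport, the cargo receptor Lman1 was higher (1.16) and the retrieval receptor Kdelr3 lower (-1.28), with a median of 0.02. The chaperone median of 0.59 was thus higher than that of each of these 4 ER lists, with no test of the difference.

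Cytosolic and mitochondrial chaperones were also more abundant in Clp1 KD mTEChi. Of 21 such genes 7 (33.3%) were called higher and none lower, against 19.1% higher and 18.6% lower of all tested genes. Among genes with 1000 reads or more the shares were 11.3% and 9.67%. The median of the list was 0.79 and lay above that of the ER chaperones. Hspa9, the mitochondrial Hsp70, had 7585 reads in Clp1 KD and 2072 in Ctr (1.49, 1.42 to 1.56), Stip1, which links Hsp70 to Hsp90, stood at 1.38, and Dnaja1, a J-domain protein of the cytosol, at 1.18. Hence higher chaperone mRNA in Clp1 KD was not confined to the ER among the lists examined.

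Among 22 further regulators of the response, 2 (9.09%) were called higher and 1 (4.55%) lower, with a median of 0.13. Of all tested genes 19.1% were called higher and 18.6% lower. Creb3l1, an ATF6-like membrane-bound factor known from secretory cells, had 141 reads in Clp1 KD and 2 in Ctr (5.76, 3.88 to 8.82), and its relative Creb3l4 had 269 and 44 reads in Clp1 KD and Ctr (2.23, 1.77 to 2.73). Ern2, the IRE1 relative of mucosal epithelia, had 7 reads in Clp1 KD and 49 in Ctr (-3.19, -4.57 to -2.04). Derl3 stands in both the degradation list and a list of 9 plasma cell markers, of which it was the 1 called higher, while Mzb1 (1 read in Clp1 KD and 72 in Ctr) and Fcrl5 (18 and 136) were called lower and the median was -0.10. Of 17 antigens of secretory acinar and islet cells tested, proteins with a high load on the ER in their own tissues, 2 were called higher and 7 lower (11.8% and 41.2%, median -0.56).

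Lists around ATF4 held genes called in both directions. In the order below, 15%, 25% and 13.6% were called higher and 15%, 8.33% and 18.2% lower. Of all tested genes 19.1% were called higher and 18.6% lower. Of 20 genes of amino acid synthesis and transport 3 were called higher and 3 lower (median -0.11): the enzymes Psph (1.12), Gpt2 (1.09) and Cth (1.04) were higher, and the transporters Slc1a5 (-1.92) and Slc7a5 (-1.14) and the enzyme Cbs (-1.92) lower. Of 12 cytosolic tRNA synthetases Iars (1.32), Eprs (1.22) and Cars (1.08) were higher and Wars (-1.18) was lower (median 0.21). Of 22 further targets of ATF4 and of stress 3 were called higher and 4 lower (median 0.42). Stc2, which encodes the secreted glycoprotein stanniocalcin, had 140 reads in Clp1 KD and 8 in Ctr (3.75, 2.73 to 4.99), Jdp2 stood at 1.32 and the pro-apoptotic Pmaip1 at 1.08, whereas the lipoprotein receptor Vldlr had 2 reads in Clp1 KD and 94 in Ctr (-5.93, -9.0 to -4.04), the pro-apoptotic Bcl2l11 stood at -1.83 and Cebpd at -1.33.

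**Figure D4:**
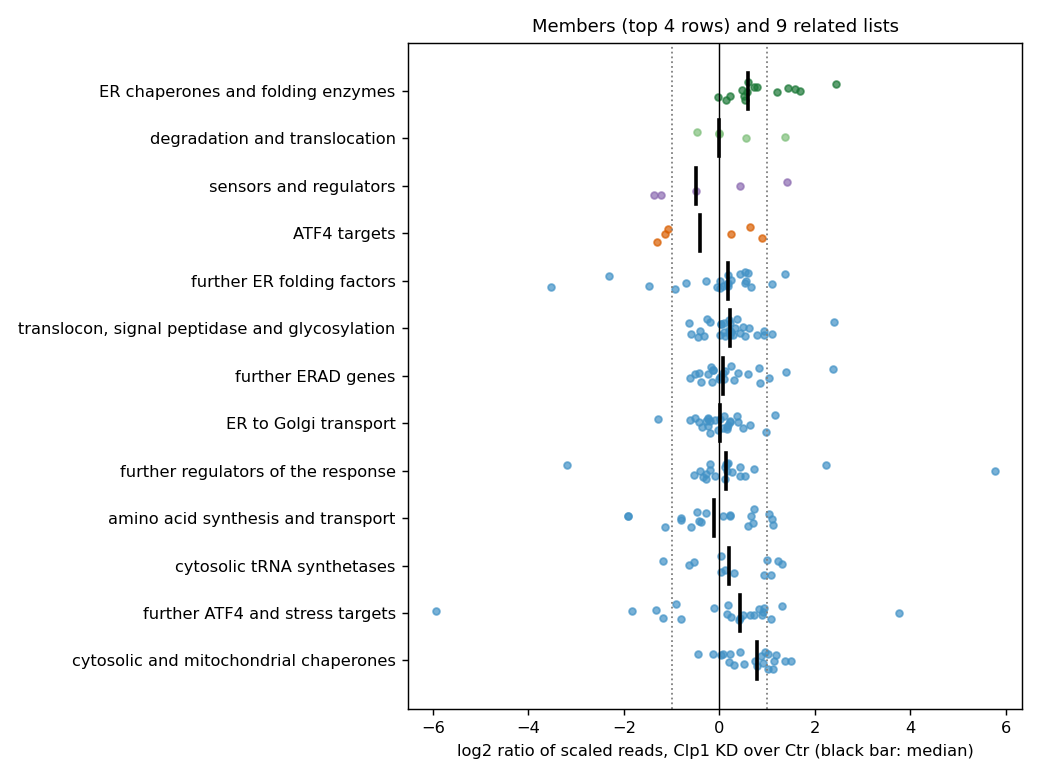
Log2 ratio of scaled reads, Clp1 KD over Ctr (x axis), of the members in their 4 groups (upper rows) and of the tested genes of 9 related lists (blue); each point is a gene, black bars are medians and dotted lines the 2-fold threshold. The ER chaperones (median 0.59) and the cytosolic and mitochondrial chaperones (0.79) have the highest medians.

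Clp1 is part of the machinery that cleaves pre-mRNAs at poly(A) sites, so the 3' ends of the members were compared as well. The d3'UTR ratio is the read density of the 3'UTR beyond the most proximal annotated poly(A) site over that of the last exon upstream of it, and 12 members had such a distal part. In Clp1 KD the ratio was called 2-fold higher for 1 member and 2-fold lower for 1, against 14.1% higher and 12.7% lower of 5598 genes, and the median quotient of Clp1 KD over Ctr was 1.05 for the members and 0.981 for all. Dnajc3 had a d3'UTR ratio of 0.930 in Clp1 KD and 0.445 in Ctr, a quotient of 2.09 (1.51 to 2.87). Edem1 had 0.235 in Clp1 KD and 0.486 in Ctr, a quotient of 0.485 (0.400 to 0.586). Distal 3'UTRs were thus relatively more covered in Clp1 KD for the BiP co-chaperone and less covered for the degradation factor.

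In both genes the parts of the transcript had different ratios. In Edem1 the earlier exons stood at 0.44 (0.32 to 0.55) and the distal 3'UTR at -0.61 (-0.73 to -0.49) on the log2 scale, which together gave 0.00. In Dnajc3 the earlier exons stood at 0.09 (-0.01 to 0.18) and the distal 3'UTR at 1.10 (0.98 to 1.23). Dnajb9 had a quotient of 1.64 (1.32 to 2.04), Atf6 of 0.585 (0.409 to 0.840), Pdia6 of 0.619 (0.514 to 0.746) and Pdia3 of 0.721 (0.593 to 0.880). In Hspa5, P4hb and Canx the ratio was nearly level between the libraries: Hspa5 had a d3'UTR ratio of 0.474 in Clp1 KD and 0.475 in Ctr, a quotient of 0.998 (0.921 to 1.08), P4hb one of 0.939 (0.860 to 1.03) and Canx one of 1.10 (1.01 to 1.21). Sel1l and Dnajb11 had quotients of 1.14 (1.0 to 1.3) and 1.12 (0.924 to 1.37), and Manf, with 11 distal reads in Clp1 KD and 1 in Ctr, could not be resolved (0.832 to 247).

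**Figure D5:**
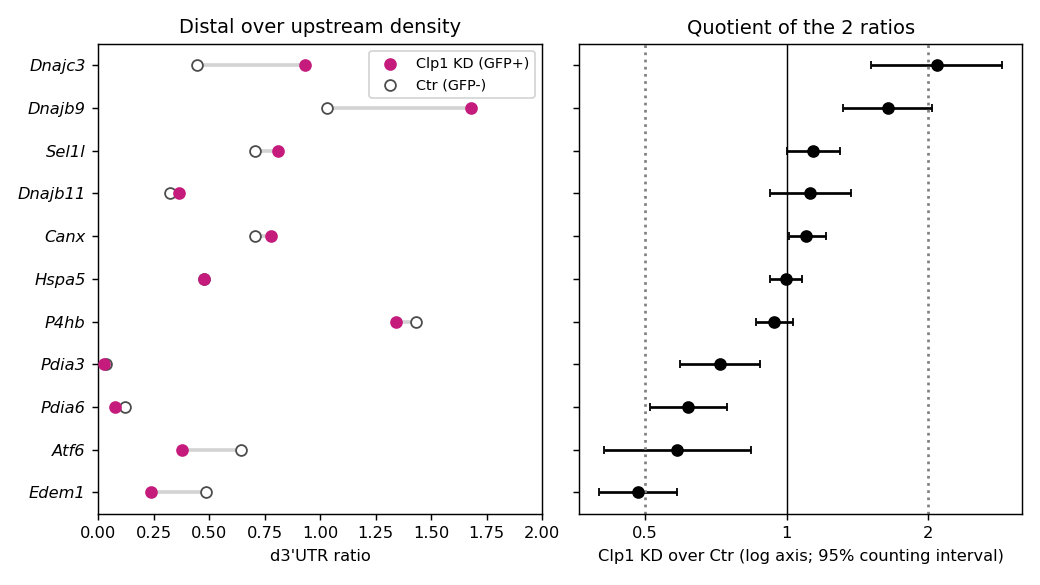
Left, d3'UTR ratio (distal over upstream last-exon read density, x axis) of 11 members in the Clp1 KD library (filled) and the Ctr library (open). Right, the quotient of Clp1 KD over Ctr on a log axis with 95% counting intervals and dotted lines at 2-fold; Manf, with 12 distal reads in all, is left out. Dnajc3 (2.09) and Edem1 (0.485) lie beyond the dotted lines, and the points of Hspa5 coincide.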

How the data were processed

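Gene expression was compared between 1 Clp1 KD and 1 Ctr library. Per the labels and the study's methods, poly(A) RNA libraries made with a low-input kit were sequenced single-end, aligned to mm9 with Bowtie 1.0.0 and counted with bedtools. The authors deposited whole read counts over 30794 RefSeq transcripts and over the parts of 27567 transcripts, the distal 3'UTR starting at the most proximal site of PolyA_DB. A part length in bp, as deposited by the authors in another column, was used for densities. Their table of size-factor-scaled signals, folds and p-values was not used. Whether counting used strand is not stated in those sources, so an antisense partner may share a gene's reads, as isoforms do.

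Symbols (30216 transcripts matched) came from a RefSeq table of GRCm38.p6; coordinates and GC content came from GENCODE vM1 on mm9 (GC content for 92.2% of tested genes). For Xbp1 the length is that of another transcript of the gene. Size factors were medians of ratios as in DESeq; 0.5 was added to scaled reads for medians. The calls needed 50 reads, a 2-fold ratio and an interval leaving out 0; d3'UTR ratios needed 10 last-exon reads in each library. Members and lists were chosen with earlier results of these data known. Named were all members, Clp1, up to 3 called genes in each direction per pathway list and up to 3 markers with most reads per cell type list; of cell types other than epithelium only counts and medians are given, and of plasma cells also the genes called lower, chosen after their values were seen. Pycr1, Ly6g, Hbb-b1 and Ahsp were not matched. Scripts were tested on simulated data. Python 3.11.15, scipy 1.17.1, R 4.3.3 and edgeR 4.0.16 (for TMM scaling only) were used.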

Additional observations from a re-analysis of the deposited data

How the results depend on the processing

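No paired analysis was possible because each group has 1 library, and no replicate could be left out. Under TMM scaling, total read scaling, other minimums of reads and counts without the distal 3'UTR, the chaperone median stayed between 0.57 and 0.61, the ATF4 target median between -0.43 and -0.41 and their difference between 1.01 and 1.03, with 7 members called higher and 5 lower. Pseudocounts of 1 and 5, run for the medians alone, gave 0.59 and -0.41 and differences of 1.01 and 1.0. With the degradation and translocation genes added, run for the chaperone median and the difference, these were 0.57 and 0.98. With every transcript of a gene counted on its own, which enters genes with several isoforms more than once, the chaperone median was 0.73, the ATF4 target median 0.24, their difference 0.50 and the number called higher 11. Without the GC trend the values were 0.70, 0.06 and 0.64, and 3 were called lower. Scaled on thymic epithelium markers, a choice made after seeing the data, the medians were 0.19 and -0.81. With a 1.5-fold threshold 12 members were called higher, against 28.3% of the tested genes, the 5 added being Dnajb11, Pdia6, Creld2, Ddit3 and Ppp1r15a. Of 248 values of single members over 8 alternatives, 222 stayed within the counting interval, 26 left it and none of the called ones changed sign. The pooled count says little, because every member had at least 347 reads and the other minimums of reads could not move a value. Of the values that left the interval, 24 did so without the GC trend, where only 7 stayed, and 2 without the distal 3'UTR. The number of members with a called d3'UTR ratio was 2 in each alternative. The lowest counted member, Chac1, had 129 reads in Clp1 KD and 218 in Ctr, and the intervals do not cover variation between animals or sorts.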
